A study of Mus musculus with 4 samples.

Results

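The genes described here are the Krüppel-like factor (KLF), AP-1 and EGR genes together with a few early response genes of other families. They were chosen by symbol, not by how fast each responds to a signal. The rule took Klf followed by a number, Fos, Fosb, Fosl1, Fosl2, Jun, Junb, Jund, Egr1 to Egr4, Ier2, Ier3, Ier5, Atf3, Myc, Maff, Mafk, Btg2 and Zfp36. Of the 17097 genes on the arrays with a probe set of exactly 1 symbol, 33 were members, measured by 58 probe sets. Another 4 symbols that fit the rule, Klf7, Klf8, Klf14 and Zfp36, were not analysed here. The samples were mouse brown adipocytes, the heat-producing type of fat cell, that expressed either a scrambled short hairpin RNA (Scramble, 2 arrays) or a hairpin against the long noncoding RNA Blnc1 (shBlnc1, 2 arrays, called knockdown below). Both groups had been differentiated for 6 days, and 250 ng of total RNA per sample was labelled for Affymetrix arrays that read the 3' end of transcripts. The replicates are described as biological, and the comparison asks how the loss of Blnc1 changes the transcripts of these cells. The origin of the cells, the way the hairpins were delivered and the number of hairpins are not given in the sources used here, and the level of Blnc1 itself was not analysed here.

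Early response genes are switched on within minutes of a signal, without new protein synthesis, and their messages and proteins are short-lived. FOS and JUN proteins pair through leucine zippers to form AP-1, and small MAF proteins and ATF3 belong to the same basic leucine zipper (bZIP) class. EGR proteins bind GC-rich DNA through zinc fingers, and KLF proteins bind GC boxes and CACCC elements through 3 zinc fingers. In fat cells several KLF proteins act at different steps of differentiation: Klf4, Klf5, Klf6, Klf9 and Klf15 are known as promoters of it, and Klf2 and Klf3 as inhibitors. EGR2 (Krox20) is known to act early in the adipogenic programme.

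Values are log2 expression values, and a value of 2.55 is taken as the background, the most that an antigenomic control (3 to 24 G or C bases, no match in the genome) reached on an array. Each gene is read by its brightest probe set, a gene is "called" at an adjusted p under 0.05 (limma with Benjamini-Hochberg adjustment over all 17097 genes), and changes are knockdown minus scramble. Levels of different genes cannot be compared, because probe sets differ in response. In bulk RNA, a change in the share of cells that express a gene cannot be told apart from a change per cell. The fat cell markers Adipoq (log2 values 11.75 to 11.86) and Fabp4 (12.26 to 12.36) were high on all 4 arrays. The brown fat gene Ucp1 read 7.51 and 7.73 in scramble and 5.53 and 5.98 in knockdown, and Cidea read 8.28 and 8.40 against 6.29 and 6.37. Of 10 measured brown fat markers, all above background on every array, 6 were lower in knockdown and 0 higher, and a dimmer Fabp4 probe set of the unique type gave a log2 fold change of -0.69. Other measures also moved with the groups. For Actb the 3' control probe set exceeded the 5' one by 0.99 and 1.15 log2 units in scramble and by 1.77 and 1.88 in knockdown, and for Gapdh by 0.09 and 0.04 against 0.34 and 0.40. The 18S ribosomal RNA control read 5.125 and 4.43 in scramble and 6.64 and 7.01 in knockdown. Of 9 measured hepatocyte markers, 7 were lower and 1 (Trf) was higher in knockdown, with a summed linear level of 342 to 349 in scramble and 167 to 212 in knockdown, and Fgb was at background on every array. Of these 9 markers 8 were above background on each array but knockdown replicate 2, where 4 were. Macrophage and endothelial markers had 1 called gene each, both higher (Adgre1 and Tek), and skeletal muscle markers 1 lower gene (Myod1, at background in knockdown). The calls of Tek and Trf were lost without knockdown replicate 1 (adjusted p = 0.0763 and 0.0638), that of Adgre1 without knockdown replicate 2 (0.0861), and that of Myod1 without either of them (0.142 and 0.143) or scramble replicate 2 (0.0645). Of the macrophage markers 3 to 5 of 9 were above background on an array, with a summed linear level of 63.6 and 65.0 in scramble and 69.7 and 70.8 in knockdown. Of the endothelial markers 2 or 3 of 6 were above it (41.6 and 42.1 against 41.8 and 45.2), and of the skeletal muscle markers 4 or 5 of 6 (44.0 and 44.5 against 39.7 and 40.5). The part of RNA quality and of other cell types in the changes below was not tested.

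Of the 33 genes, 7 were higher on the knockdown arrays, 3 were lower and 23 were not called. The share called among all genes was 18.5% (11.4% higher and 7.18% lower). The higher genes were 4 KLF genes (Klf10, Klf4, Klf3 and Klf6), 2 EGR genes (Egr1 and Egr2) and Ier3. The lower genes were Myc, Maff and Fosb, and the last of these read below background on every array. The median log2 fold change of the 33 was -0.08, against -0.04 for all genes. The arrays of the groups did not overlap for 23 members, against 62.6% of all genes. Klf10, Klf4 and Klf3 rose by at least 1 log2 unit, as did 2.15% of all genes. At least 1 group mean lay above background for 27 members, of which 7 were higher and 2 lower. Among all genes with such a mean, 24% were called, 14.9% higher and 9.05% lower. With knockdown replicate 1 or 2 left out, 6 members were called each time, and the number of all genes called fell from 3169 to 1232 and 1050. Calls lost in the lists below without a knockdown array are to be read beside this fall. No called member changed sign under any of the 12 alternative settings that it was run in, but most settings could not reverse a sign. Those that alter only the test, or the genes that enter it, keep the log2 fold changes as they are. For every called member the arrays of the groups did not overlap, so leaving out 1 array could not reverse it.

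**Figure D1:**
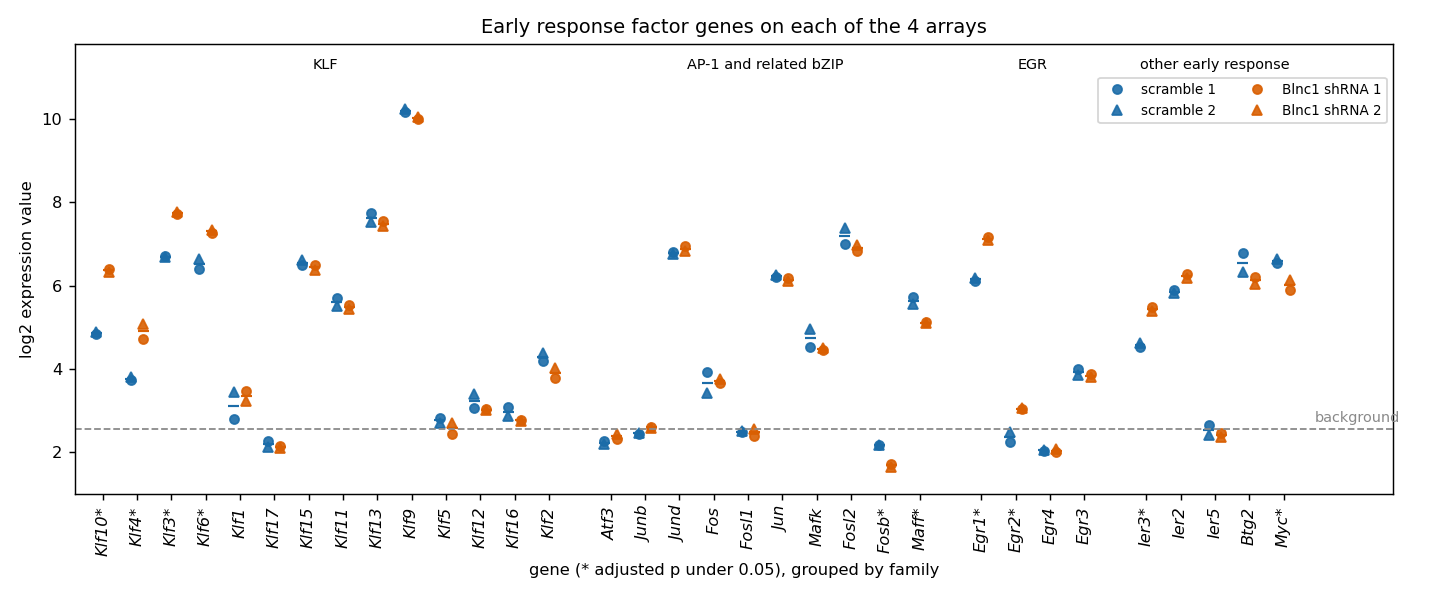
Log2 expression values of the 33 genes (vertical axis) on the 2 scramble arrays (blue) and the 2 knockdown arrays (orange), circles for replicate 1 and triangles for replicate 2, with horizontal ticks at the group means and a dashed line at the background of 2.55. The orange points of Klf10, Klf4, Klf3, Klf6, Egr1, Egr2 and Ier3 lie above the blue ones, those of Myc, Maff and Fosb lie below, and the arrays of most other genes lie close together.

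Klf10, first known as the TGF-beta inducible early gene, encodes a repressor and had the largest change of the set. It read 4.84 and 4.87 in scramble and 6.40 and 6.32 in knockdown. The gap between the groups was wide against the 0.07 between the knockdown arrays. Its log2 fold change was 1.51 with a standard error (SE) of 0.10, a 2.84-fold rise (adjusted p = 0.000421). This placed Klf10 100th among the 17097 genes ordered from the largest rise. Without single arrays or under other scalings its log2 fold change ran from 1.38 to 1.57 and its adjusted p did not exceed 0.00435.

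Klf4, a zinc finger factor that cells induce early in differentiation to fat, read 3.73 and 3.81 in scramble and 4.72 and 5.08 in knockdown. The knockdown arrays differed from each other by more than the scramble arrays, yet both lay well above them. The rise was 2.19-fold (log2 fold change 1.13, SE 0.14, adjusted p = 0.00295). Klf3, a repressor that recruits CtBP and restrains fat cell differentiation, read 6.70 and 6.69 against 7.73 and 7.76. Its groups were tight and clearly apart, with a 2.07-fold rise (log2 fold change 1.05, SE 0.10, adjusted p = 0.00116) on the brightest of 6 probe sets. Klf6, an activator whose gene responds to serum and injury, read 6.40 and 6.64 in scramble and 7.25 and 7.34 in knockdown. It rose 1.72-fold (log2 fold change 0.78, adjusted p = 0.00653), and without knockdown replicate 2 the adjusted p was 0.0524. All 3 genes read higher on both knockdown arrays than on either scramble array.

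No KLF gene was lower at the threshold, and 10 of the 14 measured were not called. Klf9, a glucocorticoid-induced factor, had a log2 fold change of -0.18 (95% interval -0.42 to 0.06). It read 10.16 and 10.23 in scramble and 9.99 and 10.04 in knockdown, groups that did not overlap but lay close. With a trend in the eBayes prior its adjusted p was 0.011 in place of 0.25. Klf15, which acts in glucose and amino acid metabolism, read 6.49 and 6.60 against 6.50 and 6.37. The 2 groups of Klf15 overlapped, with a log2 fold change of -0.11 (95% interval -0.36 to 0.15). Klf2, an inhibitor of adipogenesis that is best known from endothelial cells, read 4.19 and 4.37 against 3.77 and 4.02. Its groups were apart and its interval lay below 0 (log2 fold change -0.39, 95% interval -0.69 to -0.09), but it missed the threshold over all genes (adjusted p = 0.0771). Klf13 read 7.74 and 7.53 in scramble and 7.55 and 7.42 in knockdown, which overlap (log2 fold change -0.15), and Klf11, a close relative of Klf10, read 5.71 and 5.51 against 5.53 and 5.45 (-0.12). So the close relatives Klf10 and Klf11 gave different results on their own: Klf10 was called and Klf11 was not, and the difference between them was not tested.

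The remaining KLF genes were dim. Klf1, the erythroid member, ranged from 2.79 to 3.47 and its scramble arrays alone differed by 0.64, so its groups overlapped. Without scramble replicate 2 Klf1 had a log2 fold change of 0.56 (adjusted p = 0.0404), in place of 0.24. Klf5, which acts early in adipogenesis, read 2.82 and 2.70 against 2.44 and 2.70, near the background. Klf12 ranged from 3.01 to 3.39 and Klf16 from 2.74 to 3.09, with log2 fold changes of -0.21 each. Klf17 was at background on all arrays (2.10 to 2.27).

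**Figure D2:**
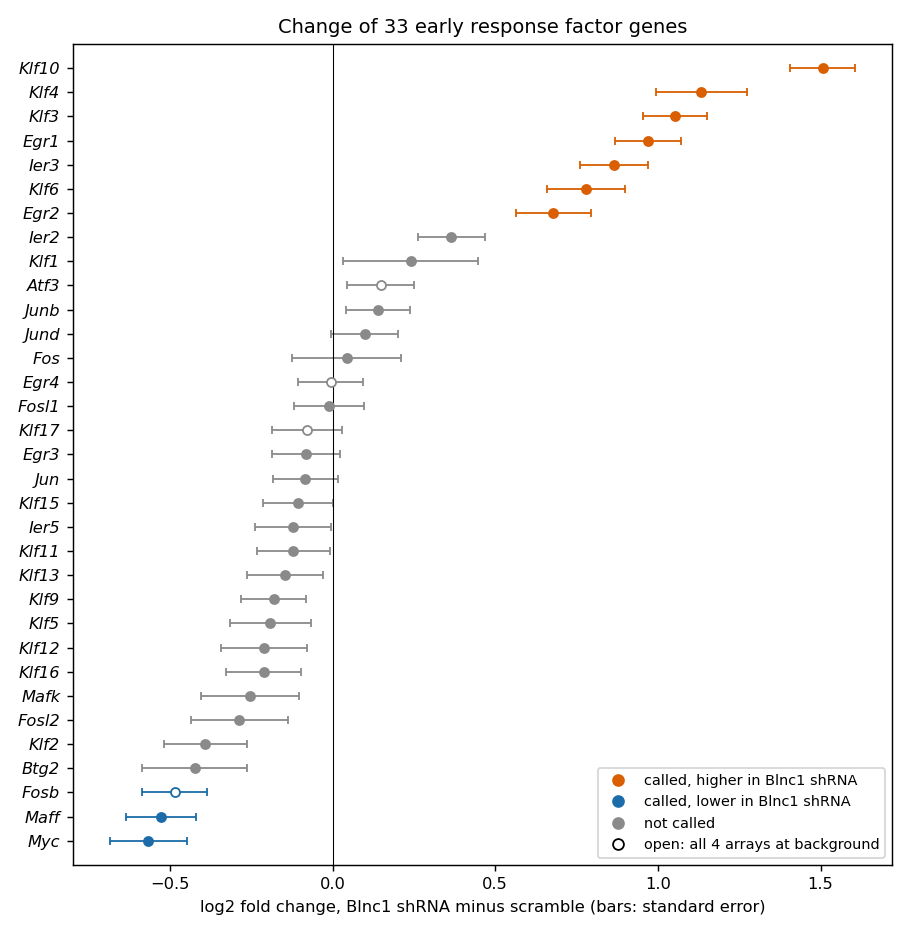
Log2 fold change, knockdown minus scramble, of each of the 33 genes (horizontal axis) with its standard error as a bar, ordered by size. Orange marks the 7 called higher genes, blue the 3 called lower genes and grey the 23 not called, and open symbols mark genes at or below background on all 4 arrays. The rises reach 1.51 (Klf10), and the falls reach -0.57 (Myc).

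The DNA in front of these genes is shown because the called KLF and EGR genes encode factors that themselves bind GC-rich sites. RefSeq promoters (build GRCm38.p6) were matched by symbol for 25 of the 33 members, with 31 start sites. No promoter of Klf10, Egr1, Myc, Ier2, Egr3, Klf5, Klf16 or Fosl1 was searched, so nothing is known here of their motifs. The sequences run 5' to 3' on the strand of the gene and give the 250 bases before a start site. Capitals mark every match, on either strand, to TGACGTCA (the cAMP response element, CRE), TGACTCA (AP-1), the CArG box bound by serum response factor, GGGGCGGGG (GC box), GCGGGGGCG (EGR), CACGTG (E box), or GGGTGTGGC and its shorter relative CCACACCC (KLF). The GC box and the EGR motif can share bases, as they do upstream of Klf3 and Klf4, and the KLF motifs overlap each other. Egr2 has 5 start sites in the table and Maff has 3, of which 1 each is shown. The genes printed were called and have a match, and Ier3, which was called with no match, is not printed.
Klf4, chr4:55532476-55532725, minus strand: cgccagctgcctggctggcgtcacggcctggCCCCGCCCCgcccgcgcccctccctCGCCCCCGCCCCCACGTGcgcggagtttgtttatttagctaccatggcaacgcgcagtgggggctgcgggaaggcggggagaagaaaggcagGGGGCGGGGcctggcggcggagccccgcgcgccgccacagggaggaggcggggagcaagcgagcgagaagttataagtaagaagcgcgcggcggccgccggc
Klf3, chr5:64803271-64803520, plus strand: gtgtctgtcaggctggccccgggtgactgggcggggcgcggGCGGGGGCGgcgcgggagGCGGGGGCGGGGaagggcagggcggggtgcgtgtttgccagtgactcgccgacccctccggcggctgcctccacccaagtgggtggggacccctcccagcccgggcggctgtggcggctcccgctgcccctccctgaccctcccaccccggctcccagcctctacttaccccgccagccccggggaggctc
Klf6, chr13:5861239-5861488, plus strand: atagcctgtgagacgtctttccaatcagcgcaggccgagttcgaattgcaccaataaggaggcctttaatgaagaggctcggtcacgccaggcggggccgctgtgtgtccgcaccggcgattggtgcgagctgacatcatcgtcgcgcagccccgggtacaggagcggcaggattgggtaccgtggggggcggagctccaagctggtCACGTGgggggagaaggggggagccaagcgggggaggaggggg
Egr2, chr10:67537620-67537869, plus strand: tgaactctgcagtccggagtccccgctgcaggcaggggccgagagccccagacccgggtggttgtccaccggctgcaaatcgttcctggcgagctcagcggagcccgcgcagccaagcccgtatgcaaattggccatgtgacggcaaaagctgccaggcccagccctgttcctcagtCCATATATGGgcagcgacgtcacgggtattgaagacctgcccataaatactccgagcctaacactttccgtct
Maff, chr15:79347270-79347519, plus strand: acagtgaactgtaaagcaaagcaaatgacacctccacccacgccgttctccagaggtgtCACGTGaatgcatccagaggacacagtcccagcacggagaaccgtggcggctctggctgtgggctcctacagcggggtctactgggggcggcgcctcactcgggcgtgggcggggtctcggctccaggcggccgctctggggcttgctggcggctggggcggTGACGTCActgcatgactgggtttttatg

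Matches to the EGR motif were found in 7 of the 31 member promoters (22.6%), against 2.91% of all 32851 promoters of the same 300 base length. Klf3 has 2 of them, with first bases at positions -209 and -191 from the start, and Klf4 has 1, at -194. The GC box was present in 9 member promoters (29%, against 11.4% of all), including those of Klf3, Klf4 and Egr2. CArG boxes were found in 4 member promoters (12.9%, against 1.63%), all of them start sites of Egr2. The printed Egr2 sequence has 1, CCATATATGG, at position -73, and neighbouring start sites of the table share it. The E box was found in 7 member promoters (22.6%, against 7.15%), among them Klf4, Klf6 and Maff. The CRE was found in Btg2 and Maff (6.45%, against 1.79%), the AP-1 motif in 0 member promoters (5.2% of all), the longer KLF motif in Klf17 (3.23%, against 1.35%) and the shorter one in Klf12, Klf17 and Maff (9.68%, against 3.56%). The matches were not limited to the genes that rose, since the EGR motif was also present in Klf2, Klf15, Mafk, Fosl2 and Fosb. Among the searched genes that rose, it was absent from Klf6, Egr2 and Ier3, and Ier3 had no match to any of the motifs. A match is a description of the letters in this window, and occupancy was not measured.

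Among the EGR genes, Egr1, a zinc finger factor induced by serum and growth factors, read 6.12 and 6.19 in scramble and 7.16 and 7.09 in knockdown. The replicates differed by 0.07 in each group, so the groups stood far apart. Egr1 rose 1.96-fold (log2 fold change 0.97, SE 0.10, adjusted p = 0.00172) and was called under all 12 alternatives. Egr2 was at background in scramble (2.25 and 2.48) and just above it in knockdown (3.03 and 3.06). Because of that only a bound can be given: Egr2 was at least 1.41-fold higher, where the bound sets each scramble array at the background (adjusted p = 0.00969, and 0.0544 and 0.0676 without knockdown replicates 1 and 2). A second Egr2 probe set read 1.91 and 2.12 against 3.02 and 2.78 and was called too. Its bound was smaller, at least 1.277-fold, so the bound of 1.41-fold holds for the brightest probe set only. Egr3, an EGR factor best known from neurons and lymphocytes, read 3.99 and 3.85 against 3.87 and 3.81, with overlapping groups and a log2 fold change of -0.08. Egr4 was at background on every array (2.00 to 2.07). The EGR corepressor gene Nab2, whose transcription EGR1 itself drives, read 3.32 and 3.10 in scramble and 3.88 and 3.79 in knockdown. It was 1.54-fold higher (adjusted p = 0.0137; 0.0891 and 0.0652 without knockdown replicates 1 and 2).

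Ier3, a stress-induced gene, was the other gene that rose. It read 4.52 and 4.62 in scramble and 5.49 and 5.38 in knockdown, groups clearly apart, for a 1.82-fold rise (log2 fold change 0.86, SE 0.11, adjusted p = 0.00286). Ier2, a nuclear early response protein gene, read 5.89 and 5.82 against 6.27 and 6.17. The groups did not overlap, and the adjusted p of 0.0501 lay just above the threshold (log2 fold change 0.37, 95% interval 0.12 to 0.61). After centring each array on its median it was 0.0286, and after quantile normalization 0.237. Ier5 read 2.64 and 2.42 against 2.46 and 2.36, around background.

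None of the FOS and JUN genes above background was called. Jun, the core AP-1 partner, read 6.19 and 6.26 in scramble and 6.18 and 6.11 in knockdown. These arrays lay within 0.15 of each other, with a log2 fold change of -0.08 (95% interval -0.32 to 0.15). Jund, the most constitutive JUN gene, read 6.81 and 6.76 against 6.94 and 6.82, a change of 0.10 (95% interval -0.15 to 0.34) that turned to -0.04 after quantile normalization. Fos itself read 3.91 and 3.42 in scramble and 3.65 and 3.77 in knockdown. The scramble arrays of Fos enclose both knockdown arrays, and the log2 fold change of 0.04 has a 95% interval of -0.35 to 0.44. Fosl2, the FOS family member most linked to fat tissue, read 6.99 and 7.38 against 6.82 and 6.97, a log2 fold change of -0.29 that was not called (adjusted p = 0.222). Without scramble replicate 1 its log2 fold change was -0.48 and its adjusted p was 0.04996. Junb (2.45 and 2.46 against 2.62 and 2.57) and Fosl1 (2.39 to 2.57) lay around background. Atf3, a stress-induced repressor, was at background on all arrays (2.20 to 2.43).

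Maff was the only member of the bZIP group that was called lower while above background. Maff encodes a small MAF protein, which lacks an activation domain and pairs with NRF2 and related factors. It read 5.72 and 5.55 in scramble and 5.12 and 5.10 in knockdown, so the groups were apart. Its fall was 1.44-fold (log2 fold change -0.53, SE 0.11, adjusted p = 0.0186). Without knockdown replicates 1 and 2 that adjusted p was 0.0951 and 0.113, and 0.0505 when scramble replicate 1 was left out. Mafk, a second small MAF gene, read 4.52 and 4.95 against 4.46 and 4.50 and was not called (log2 fold change -0.25). Without scramble replicate 1 its log2 fold change was -0.47 (adjusted p = 0.0438). Fosb passed the test (adjusted p = 0.0186; 0.0863 and 0.132 without knockdown replicates 1 and 2), but its values of 2.17 and 2.16 against 1.72 and 1.64 all lie below background, so no fold is given.

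Myc, a growth regulator that drives ribosome production, read 6.54 and 6.63 in scramble and 5.90 and 6.14 in knockdown. Both knockdown arrays lay below both scramble arrays, and the fall was 1.48-fold (log2 fold change -0.57, SE 0.12, adjusted p = 0.0194). Without knockdown replicate 1 the adjusted p was 0.127 and the log2 fold change -0.45. Btg2, an antiproliferative gene whose product speeds the removal of poly(A) tails, read 6.77 and 6.32 against 6.20 and 6.05. Its scramble arrays differed by 0.46, and it was not called (log2 fold change -0.42, adjusted p = 0.117). A second probe set of Btg2 with tighter replicates, 5.87 and 5.80 against 5.34 and 5.43, was called when each probe set was tested on its own (adjusted p = 0.027). Without scramble replicate 2 the log2 fold change of Btg2 was -0.65 and its adjusted p was 0.0195.

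Of the 33 genes, 13 had more than 1 probe set, and for several of them the size of the change depended on which was read. Klf6 gave log2 fold changes of 0.78, 0.55 and 1.39 on its 3 probe sets, all called. The last of these is the dimmest, at 2.96 and 2.94 in scramble and 4.14 and 4.54 in knockdown. Klf4 gave 1.13 and 0.49, the second with an adjusted p of 0.0506. Klf3 gave 1.05 on its brightest probe set, 0.30, 0.53 and -0.15 on 3 dimmer ones that were above background and not called, and 2 more lay around or below background. With the mean of all 6, the log2 fold change of Klf3 was 0.30 and its adjusted p was 0.0556, so the called rise of Klf3 rests on the brightest probe set. The 2 bright probe sets of Klf13 pointed apart (-0.15 and 0.19) without either being called. The 5 probe sets of Klf12 also differed in sign, from -0.42 to 0.44, and none was called. All but its brightest had both group means below background, and the mean of all gave -0.007. The 2 of Jun gave -0.08 and -0.28, and those of Fosl2 gave -0.29 and -0.30. The 5 of Klf9 were all lower in knockdown, from -0.42 to -0.11, and none was called. Its second brightest gave -0.22, and the -0.42 came from a probe set that can match other transcripts.

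**Figure D3:**
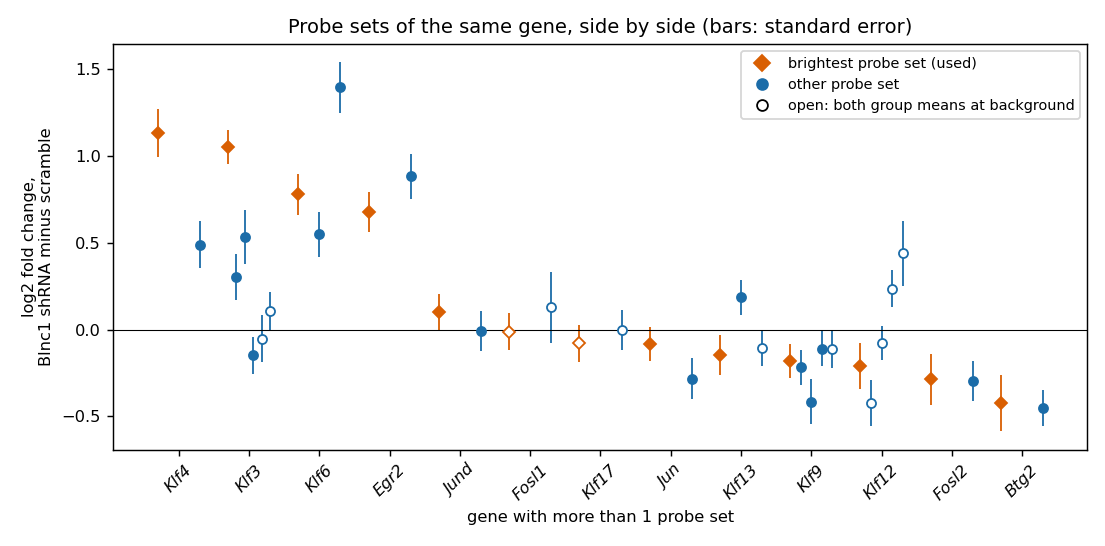
Log2 fold change, knockdown minus scramble (vertical axis), of every probe set of the 13 genes that have more than 1, with standard errors as bars. Orange diamonds are the brightest probe set, which is the one used, blue circles the others, and open symbols have both group means at or below background. The probe sets of Klf6 range from 0.55 to 1.39, and those of Klf3 from -0.15 to 1.05.

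Genes that induce or limit the early response were read next. Among all genes 18.5% were called (11.4% higher and 7.18% lower). Of 20 measured genes of the MAP kinase cascade and serum response, 3 (15%) were higher and 0 lower. They were Elk3, a ternary complex factor (2.08-fold, adjusted p = 0.00159), Map2k2 (1.45-fold, adjusted p = 0.015) and Mapk9 (1.32-fold, adjusted p = 0.0347). Without knockdown replicates 1 and 2, 1 gene of the list was called each time, and the adjusted p-values were 0.0644 and 0.116 for Map2k2 and 0.197 and 0.137 for Mapk9, which was also not called without scramble replicate 1 (0.0743) or 2 (0.0622) or after quantile normalization (0.127). Averaging all probe sets gave Elk3 0.49 on the log2 scale, not 1.06, and Map2k2 0.28 (adjusted p = 0.0747). Of 21 MAP kinase feedback genes, whose products are phosphatases and inhibitors made in response to the signal, 9 were higher and 1 (Dusp14) was lower, 47.6% in all. Dusp6, a phosphatase specific for ERK, read 2.56 and 2.58 in scramble, just above background, and 3.76 and 3.49 in knockdown, a 2.07-fold rise (adjusted p = 0.00241). Dusp1 read 6.82 and 6.56 against 7.81 and 7.63, a 2.05-fold rise (adjusted p = 0.00331), and Dusp4 rose 1.97-fold (adjusted p = 0.0018). Dusp14 fell 1.43-fold (adjusted p = 0.0146), a call lost without knockdown replicate 1 (0.0809) or 2 (0.106). In this feedback list 6 genes were called without either knockdown array, and the median log2 fold change was 0.23.

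Among 51 other early response genes, 15 rose, 5 fell and 31 did not pass the test (39.2% called, median log2 fold change -0.01). The share called among all genes was 18.5%, 11.4% higher and 7.18% lower. Among all genes with a group mean above background, as 44 of the 51 had, it was 24%, 14.9% higher and 9.05% lower. The growth arrest gene Gadd45a rose 4.06-fold (adjusted p = 0.00092). The matricellular genes Ccn2 and Ccn1 rose 2.94-fold and 2.42-fold (adjusted p = 0.0013 and 0.00104). Gadd45g, Txnip and Id2 fell 1.57-fold, 1.54-fold and 1.44-fold (adjusted p = 0.0114, 0.00757 and 0.0207), none of them called without knockdown replicate 1 (0.0767, 0.0582 and 0.129) or 2 (0.0596, 0.0575 and 0.0835). Id2 was also not called without scramble replicate 2 (adjusted p = 0.0545) and its probe set of the unique type gave -0.30 on the log2 scale, not -0.53. Fewer of the 51 genes were called when either knockdown array was left out, as was the case for all genes. The classic early genes Nr4a1, Nr4a2 and Nr4a3 were not called (log2 fold changes -0.15, -0.28 and -0.01), and are named here after their values were seen.

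**Figure D4:**
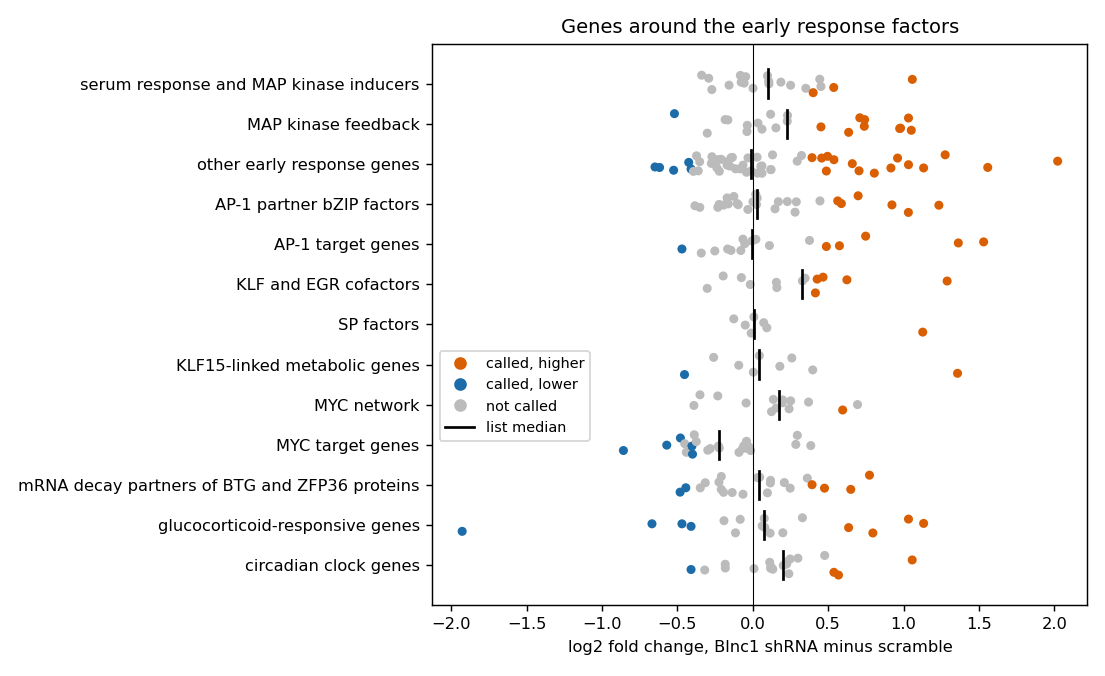
Log2 fold change, knockdown minus scramble (horizontal axis), of each measured gene of 13 lists of inducers, partners and targets of the early response factors, with the list median as a black line. Orange and blue points are called higher and lower genes, and grey points were not called. Called genes of the MAP kinase feedback list lie on the higher side apart from Dusp14 at -0.52, and all 5 called MYC target genes lie on the lower side.

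Partners of the members mostly did not pass the test. Of 27 other bZIP factor genes, 6 (22.2%) were higher and 0 lower, against 11.4% and 7.18% of all genes (18.5% called). Among them, Creb1, which binds the CRE, was 2.35-fold higher (adjusted p = 0.00241), and Creb3l2 1.90-fold (adjusted p = 0.00379), but with the mean of all probe sets their log2 fold changes were 0.13 and 0.33 and neither was called. Maf was at background in scramble and at least 1.41-fold higher (adjusted p = 0.00198). The 6 became 4 and 3 without knockdown replicates 1 and 2. Of 7 SP genes, relatives of the KLF genes, Sp3 alone (14.3%) was called, 2.18-fold higher (adjusted p = 0.00486). Of 13 cofactor genes of KLF and EGR proteins, 5 (38.5%) were higher and 0 lower. Beside Nab2 they included the acetyltransferase gene Crebbp (2.44-fold, adjusted p = 0.0109; 0.0549 without knockdown replicate 1) and Fbxw7 (1.38-fold, adjusted p = 0.0297; 0.0821 to 0.184 without scramble replicate 1 or either knockdown array). Fewer of the cofactor genes were called when either knockdown array was left out. In the full data limma gave 8 of the 13 an unadjusted p under 0.05. It did so for 5781 of all 17097 genes, and for 5336 of the 12887 with a group mean above background.

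Of the genes around Myc, the network genes were called at a share below the 18.5% of all genes. Of 14 network genes, which encode partners and antagonists of MYC, 1 (7.14%) was called, the antagonist gene Mxd4 (1.51-fold higher, adjusted p = 0.0197; 0.0951 and 0.105 without knockdown replicates 1 and 2). Of 25 MYC target genes, 5 (20%) fell, 0 rose and 20 did not pass the test. Their median log2 fold change was -0.22, against -0.04 for all genes. The share called lower was 7.18% among all genes and 9.05% among those with a group mean above background. Of the targets, 24 had such a mean. Srm, which makes spermidine, fell 1.81-fold (adjusted p = 0.00261), the ribosome assembly gene Nop16 1.49-fold (adjusted p = 0.0108) and Cdk4, a cell cycle kinase gene, 1.40-fold (adjusted p = 0.0192). Without knockdown replicates 1 and 2, 1 target gene was called each time, and the adjusted p-values were 0.06 and 0.0883 for Nop16 and 0.114 and 0.111 for Cdk4. The Cdk4 probe set of the unique type gave -0.73 on the log2 scale, not -0.48. Averaged over its probe sets, Nop16 gave -0.27 on the log2 scale (adjusted p = 0.0936).

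Of 17 AP-1 target genes, 5 were higher and 1 (the metallothionein gene Mt1) was lower, 35.3% in all, against 18.5% of all genes. The activin antagonist gene Fst rose 2.89-fold (adjusted p = 0.000436), the hyaluronan receptor gene Cd44 2.57-fold (adjusted p = 0.00252) and Ccnd1 1.68-fold (adjusted p = 0.0186; 0.0509 without scramble replicate 1 and 0.109 without knockdown replicate 2). Averaged over its probe sets, Cd44 gave 0.53 on the log2 scale, not 1.36. Mt1 fell 1.39-fold (adjusted p = 0.0199; 0.127 and 0.105 without knockdown replicates 1 and 2), and 3 and 2 genes of the list were called without those arrays. Of 22 genes that work with BTG and ZFP36 proteins in mRNA decay, 4 were higher and 2 lower, and 2 and 1 were called without knockdown replicates 1 and 2. The share of this decay list called in the full data was 27.3%. Zfp36l2 and Zfp36l1, which encode related proteins that bind AU-rich elements, had opposite signs. Zfp36l2 was 1.71-fold higher (adjusted p = 0.00409), and Zfp36l1 was 1.36-fold lower (adjusted p = 0.0332). The fall of Zfp36l1 was not called without any 1 of the 4 arrays (adjusted p 0.0556 to 0.219), and the mean of its probe sets gave -0.08 in place of -0.44.

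Of 9 genes linked to KLF15, the acetyl-CoA synthetase gene Acss2 was 2.56-fold higher (adjusted p = 0.00097) and Gpt2 1.37-fold lower (adjusted p = 0.0275), and without either knockdown array 1 was called. The adjusted p of Gpt2 was 0.066 to 0.185 without scramble replicate 2 or either knockdown array, and its probe set of the unique type gave a log2 fold change of -0.01. The share of genes linked to KLF15 called in the full data was 22.2%, against 18.5% of all genes. Of 17 glucocorticoid-responsive genes, a class to which Klf9 belongs, 4 were higher and 4 lower, 47.1% in all. Sgk1 rose 2.19-fold (adjusted p = 0.00097), and Angptl4, an inhibitor of lipoprotein lipase that PPAR factors also control, fell 3.81-fold (adjusted p = 0.000338). The Angptl4 probe set of the unique type gave -0.68 on the log2 scale, not -1.93. Of these 17 genes, 5 and 4 were called without knockdown replicates 1 and 2. Of 19 circadian clock genes, a system that drives Klf10 in other tissues, 3 were higher (Arntl, Cry1 and Bhlhe40) and 1 was lower (Per1), with 2 and 1 called without knockdown replicates 1 and 2. The call of Per1 was lost without any 1 of the 4 arrays (adjusted p 0.0558 to 0.232) and after median centring (0.062), that of Bhlhe40 without knockdown replicate 1 (0.0803) or 2 (0.0916), and that of Cry1 without knockdown replicate 2 (0.104). Arntl had a 2.08-fold rise (adjusted p = 0.00423), but its probe set of the unique type gave a log2 fold change of 0.10 and was not called. The share of clock genes called in the full data was 21.1%. Dusp1, Sgk1, Per1, Bhlhe40 and Mt1 each stand in 2 or more of these lists.

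Across the 12 alternatives, the calls of Klf10, Klf4, Egr1 and Ier3 held each time. Klf10, Egr1 and Ier3 have 1 probe set each, so averaging or selecting probe sets could not change their log2 fold changes. The other 6 called members lost the call under at least 1 of them, and 7 of the 23 members that were not called passed the threshold under at least 1.

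**Figure D5:**
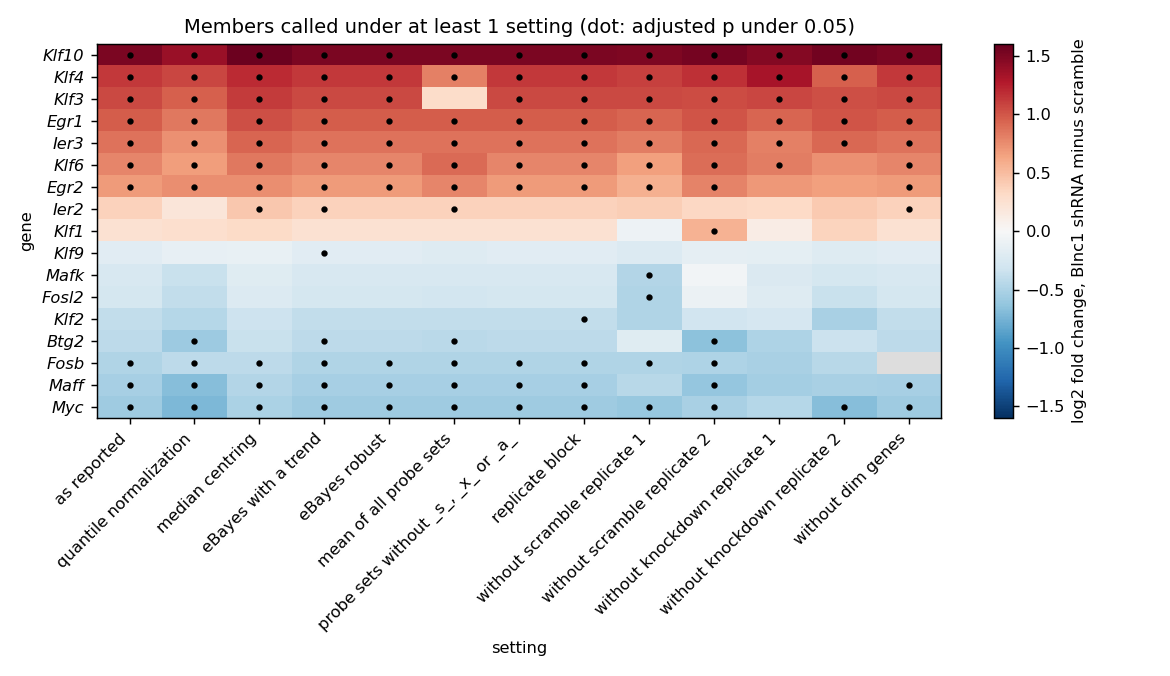
Log2 fold change (colour), knockdown minus scramble, of the 17 members called under at least 1 setting (rows) as reported and under each alternative (columns). A dot marks an adjusted p under 0.05, and grey marks a gene that the alternative leaves out. Klf10, Klf4, Egr1 and Ier3 have a dot in every column, and Klf9 has a dot only in the column of eBayes with a trend.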

How the data were processed

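The authors deposited log2 expression values, 1 per probe set and array, which run from 1.05 to 12.36, and the scale was taken from these values. Per the submitters' processing notes, the processing used limma, affy and RMA; the exact normalization and the versions are not given in the sources used here. Of 45141 probe sets, 104 are controls, and 28898 of the others have exactly 1 gene symbol, 551 several and 15588 none. Each of 17097 genes was read by its brightest probe set, by the mean of the 4 arrays, and 0 symbols needed an update through RefSeq. Two-sided tests used limma 3.58.1 in R 4.3.3 (lmFit and eBayes on 45037 probe sets, group as the only term, 2 residual and 4.93 prior degrees of freedom). The fit was tested on simulated data. P-values were adjusted by the Benjamini-Hochberg method over all genes, with a threshold of 0.05. The number of arrays limits the precision, and log2 fold changes had a standard error of 0.11 at the median. Bounds set arrays below background at the background. Probe sets whose names hold _s_ or _x_ can match other transcripts, and those with _a_ several transcripts of a gene; the others are called unique. Plots were drawn with matplotlib 3.10.9.

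The members and lists were chosen with earlier results of these data known. All members are named, and from each other list examples from the 3 most changed called genes in each direction, plus fixed fat cell markers. No set test was run. Same-numbered arrays did not deviate together (correlation 0.04), so the replicate number was no term in the fit. The alternatives were quantile normalization, median centring, leaving out dim genes, a robust eBayes, eBayes with a trend, averaging all probe sets of a gene, unique probe sets, the replicate number as a block, and leaving out each array, where a lone array was assumed to vary like the other group.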

Additional observations from a re-analysis of the deposited data

How the results depend on the processing

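Over the arrays left out in turn, all called genes ranged from 1050 to 2841 (795 to 1681 higher, 255 to 1168 lower) and called members from 6 to 12 (5 to 8 higher, 0 to 4 lower). For the lists the ranges were 3 to 7 for bZIP partners, 0 to 2 for the MYC network, 1 to 1 for SP genes, 0 to 5 for cofactors, 1 to 6 for mRNA decay, 1 to 4 for inducers, 6 to 9 for MAP kinase feedback, 7 to 17 for other early response genes, 2 to 6 for AP-1 targets, 1 to 5 for MYC targets, 1 to 2 for KLF15-linked genes, 4 to 8 for glucocorticoid-responsive genes and 1 to 5 for clock genes. With eBayes with a trend, 5 members were lower in place of 3. The called list genes numbered 1 for the MYC network as reported, 2 after quantile normalization, median centring or leaving out dim genes, 3 with the mean of all probe sets or the replicate block and 6 with a trend; 5 for cofactors, 3 after quantile normalization and 8 with a trend; 6 for mRNA decay and 3 with the mean of probe sets; 3 for inducers, 5 after quantile normalization or median centring and 6 with a trend; 5 for MYC targets, 8 after quantile normalization and 12 with a trend; 2 for KLF15-linked genes, 4 with a trend and 1 with the mean of or unique probe sets. The cause of these moves was not tested. The members above background numbered 30 in place of 27 with the background at the 95th percentile of the controls. The split of all called genes was 1941 higher and 1228 lower, 1514 and 1564 after quantile normalization, and 2383 and 844 after median centring, where members were 7 and 4, and 8 and 3. With the replicate block, 11 members were called (Klf2 in addition, adjusted p = 0.0484) and 3179 genes, and no member was lost. Of the 23 members not called, 6 changed sign under at least 1 alternative (Egr4, Fos, Fosl1, Jund, Klf1 and Klf13). Genes near the background of 2.55, such as Egr2, have only a bound.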
